A study of Mus musculus with 14 samples.

Results

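The miRNAs described here are the 4 mature products of 2 hairpins that lie inside the Hox gene clusters, miR-10a-5p and miR-10a-3p from Mir10a and miR-10b-5p and miR-10b-3p from Mir10b. They were taken by name, by a rule that uses no measured value, and all 4 of them are among the 900 names listed for whole tissue and the 677 listed for epithelial cells, out of 999 names in either list. Some miRNAs are named differently in the 2 lists and count there as 2 names. Small RNA of the mouse epididymis, the duct in which spermatozoa mature, was sequenced from the caput, corpus and cauda, its successive regions from the testis outwards. All groups were untreated male Swiss mice aged 8 weeks, with no genotype or treatment differing between them, and their blood vessels had been rinsed with PBS. Whole tissue, spermatozoa and luminal fluid included, was sequenced in 3 caput, 2 corpus and 3 cauda libraries. For caput and cauda that is more than the replicates the methods describe, so whether all 3 came from separate pools is not known. Epithelial cells were sequenced in 2 libraries per region, after spermatozoa had been washed out, the duct digested with trypsin and collagenase and the cells that stayed in suspension collected. Each library was a pool of several mice, and because the sources differ on whether replicates were biological or technical, the p-values below measure only the spread between these libraries, which may be technical.

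A miRNA is cut from the stem of a hairpin transcript, and the stem gives a 5p and a 3p product, of which one usually enters an Argonaute protein as the guide and the other is mostly lost. The guide finds messenger RNAs by its seed, bases 2 to 8, and lowers their stability or translation. The miR-10 family is ancient, sits among the Hox genes that set position along the body axis in the embryo, and is known to repress some of them; the 5p arm is its usual guide.

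The mature sequences are shown because the 2 guides can be told apart by 1 base, whereas the 3p arms differ in their seeds. They are RefSeq's, on GRCm38.p6 (the mm10 assembly to which the reads were aligned), written 5′ to 3′ with the seed in capitals.
miR-10a-5p: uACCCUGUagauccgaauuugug
miR-10b-5p: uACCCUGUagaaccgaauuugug
miR-10a-3p: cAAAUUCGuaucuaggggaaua
miR-10b-3p: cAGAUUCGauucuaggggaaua
Counted from 1 at the 5′ end, with the miR-10a base first, the 5p arms differ over 23 bases only by U12A, outside the seed. No other of the 1679 mature mouse miRNAs in the RefSeq table carries the seed ACCCUGU. The 3p arms, 22 bases long, differ by A3G, U9A and A10U, and the first of these lies within the seed, so that each 3p arm has a seed of its own, AAAUUCG or AGAUUCG, found in no other miRNA of the table.

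The hairpins show where each arm lies, with both arms in capitals.
Mir10a: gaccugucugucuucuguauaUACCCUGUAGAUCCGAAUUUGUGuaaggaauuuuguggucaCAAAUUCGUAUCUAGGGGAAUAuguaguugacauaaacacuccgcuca
Mir10b: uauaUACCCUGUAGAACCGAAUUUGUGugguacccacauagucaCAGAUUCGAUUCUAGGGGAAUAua
Mir10a (chr11:96317165-96317274, plus strand) lay in the HoxB cluster, 992 bases upstream of Hoxb4 and 11043 bases downstream of Hoxb5 in the GENCODE annotation, where no Hox transcript covered it. The RefSeq annotation extends Hoxb3 over it (chr11:96307101-96347930). Mir10b (chr2:74726070-74726137, plus strand) lay in the HoxD cluster, in introns of 1 Hoxd3 transcript and 2 Hoxd4 transcripts. The host messenger RNAs were not measured in these libraries.

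Whole tissue libraries held 1243398 to 2135501 miRNA counts and epithelial libraries 89039 to 362867, so low miRNAs are far less certain in the epithelial cells. Markers of epithelium (7 miRNAs, none at 0 in any group) summed to 27160 to 35030 CPM (counts scaled to a common total) in whole caput, 20390 to 23580 in corpus and 8678 to 10440 in cauda, and in the epithelial cells to 29550 to 32730 in caput, 40760 to 42150 in corpus and 33760 to 41660 in cauda. Its members did not move together. miR-205-5p averaged 10997, 21576 and 21360 CPM in epithelial caput, corpus and cauda, against 2013, 1960 and 1105 in whole tissue. In the caput miR-200a-3p (3930 against 7407), miR-375-3p (3864 against 7578), miR-141-3p and miR-429-3p were lower in the epithelial cells, whereas miR-200b-3p and miR-200c-3p were higher. Markers of smooth muscle (4 miRNAs, miR-143 and miR-145, none at 0) summed to 53230 to 65980 CPM in whole caput, 76250 to 80350 in corpus and 223200 to 249100 in cauda. In the epithelial cells these muscle markers lay above whole tissue in the caput (144500 to 195700 CPM) and the corpus (210000 to 212200). In the cauda they overlapped it (158200 to 336800). Most of the epithelial sum was miR-143-3p, with means of 163366, 203297 and 235104 CPM. In the cauda mean miR-145-5p was higher than in whole tissue (12244, SD 10419, against 1284) and miR-145-3p lower (136 against 336). Other cell types' markers also moved with region. In whole cauda against whole caput, red blood cell markers (4) summed to 846.4 to 1324 against 87.27 to 97.77 CPM, germ cell markers (5) to 8438 to 10360 against 3690 to 5133, leukocyte markers (5) to 1948 to 1993 against 966.1 to 1160 and fibroblast markers (4) to 3338 to 3903 against 1882 to 2157, whereas the ranges of the 2 endothelial markers overlapped. In the epithelial cells the endothelial markers summed to 25520 to 35750 CPM in caput, 13090 to 14320 in corpus and 46640 to 56670 in cauda, and the red blood cell markers to 381.8 to 473, 206.9 to 434 and 1588 to 2966. In the same order leukocyte markers were at 470.4 to 865.1, 510.6 to 705.9 and 1380 to 1586 CPM, fibroblast markers at 2924 to 3190, 4041 to 4381 and 4590 to 6855, and germ cell markers at 3747 to 4235, 1705 to 2020 and 1929 to 5177. The germ cell list (miR-34b, miR-34c and miR-449a) thus stood in epithelial caput within its range of whole caput, although spermatozoa had been washed out. That it marks germ cells here is not shown. Of these lists only 1 germ cell marker, in epithelial corpus, was at 0, and their part in the results below was not tested. CPM here and below are TMM-scaled, a method that compares each library with a reference library after setting aside the most extreme miRNAs. In bulk RNA a lower value cannot tell fewer cells of a type from less RNA per cell.

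Both guides were among the most abundant miRNAs of the epididymis. miR-10b-5p ranked between 1 and 5 and miR-10a-5p between 4 and 6 in every library. Together they took 9.13 to 18.9% of all miRNA counts in whole tissue libraries and 9.44 to 15.6% in epithelial libraries. The 3p arms were minor products, ranked between 127 and 230 (miR-10a-3p) and between 213 and 300 (miR-10b-3p) in whole tissue.

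**Figure D1:**
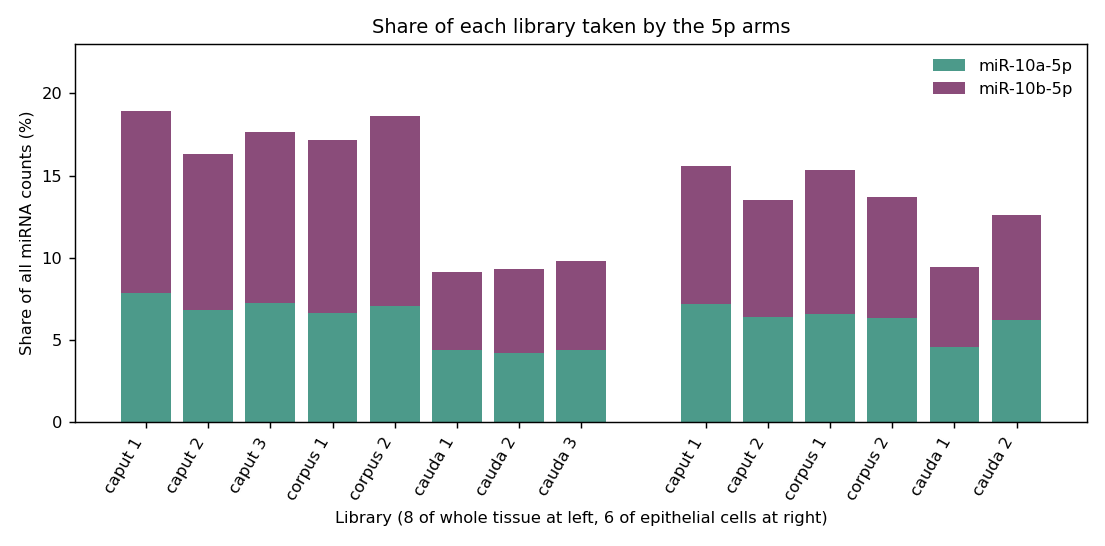
Bars give the share of all miRNA counts in each of the 14 libraries (percent, y axis) that was taken by miR-10a-5p (lower part) and miR-10b-5p (upper part). The 3 whole cauda bars are the lowest of the whole tissue libraries, at 9.13 to 9.78% together, against 16.3 to 18.9% in the caput and corpus.

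miR-10a-5p was lowest in the cauda in whole tissue. Its level was 88355, 81585 and 85320 CPM in the 3 caput libraries, 61627 and 64472 in the corpus, with 40332, 38060 and 40729 in the cauda. On this scale the regions did not overlap, and the corpus lay between the other two. As shares of all miRNA counts, caput (6.86 to 7.90%) and corpus (6.63 to 7.07%) overlapped, and the cauda (4.24 to 4.42%) lay below both. Non-overlapping regions with the later one lower were common, at 39.5% of miRNAs from caput to corpus, 36.1% from corpus to cauda and 41.1% from caput to cauda. The mean fell from 85087 ± 3391 CPM (SD, n = 3) in the caput to 63049 ± 2012 (n = 2) in the corpus, with 39707 ± 1440 (n = 3) in the cauda. From caput to cauda the log2 change was −1.10 (SE 0.066), 2.14-fold, with an adjusted p of 2.3e-07 by limma. The step from caput to corpus was −0.43 (SE 0.073, limma adjusted p = 0.00069), or −0.10 (limma adjusted p = 0.30) with libraries scaled by their totals, and that from corpus to cauda −0.67 (SE 0.074, limma adjusted p = 5e-05), each below the 2-fold needed, beside an adjusted p below 0.05, to be called differentially expressed.

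miR-10b-5p, the guide that shares the seed, kept most of its level into the corpus. It measured 123625, 112291 and 121215 CPM in the caput libraries, 97918 and 105531 in the corpus, with 43222, 45671 and 49382 in the cauda. The cauda stood far below both other regions, while caput and corpus were separated by a gap smaller than the range within the caput. The mean was 119044 ± 5971 CPM (SD, n = 3) in the caput, 101724 ± 5383 (n = 2) in the corpus, with 46092 ± 3102 (n = 3) in the cauda. The change from corpus to cauda was −1.14 on the log2 scale (SE 0.084, 2.21-fold, limma adjusted p = 6.2e-06), or −0.82, below 2-fold, with totals that left out the smooth muscle markers, and that from caput to cauda −1.37 (SE 0.075, 2.59-fold, limma adjusted p = 1.2e-07). The change from caput to corpus was −0.23 (SE 0.083, limma adjusted p = 0.037), and it turned to 0.11 (limma adjusted p = 0.32) when libraries were scaled by their totals instead of by TMM, so no direction is given for it.

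**Figure D2:**
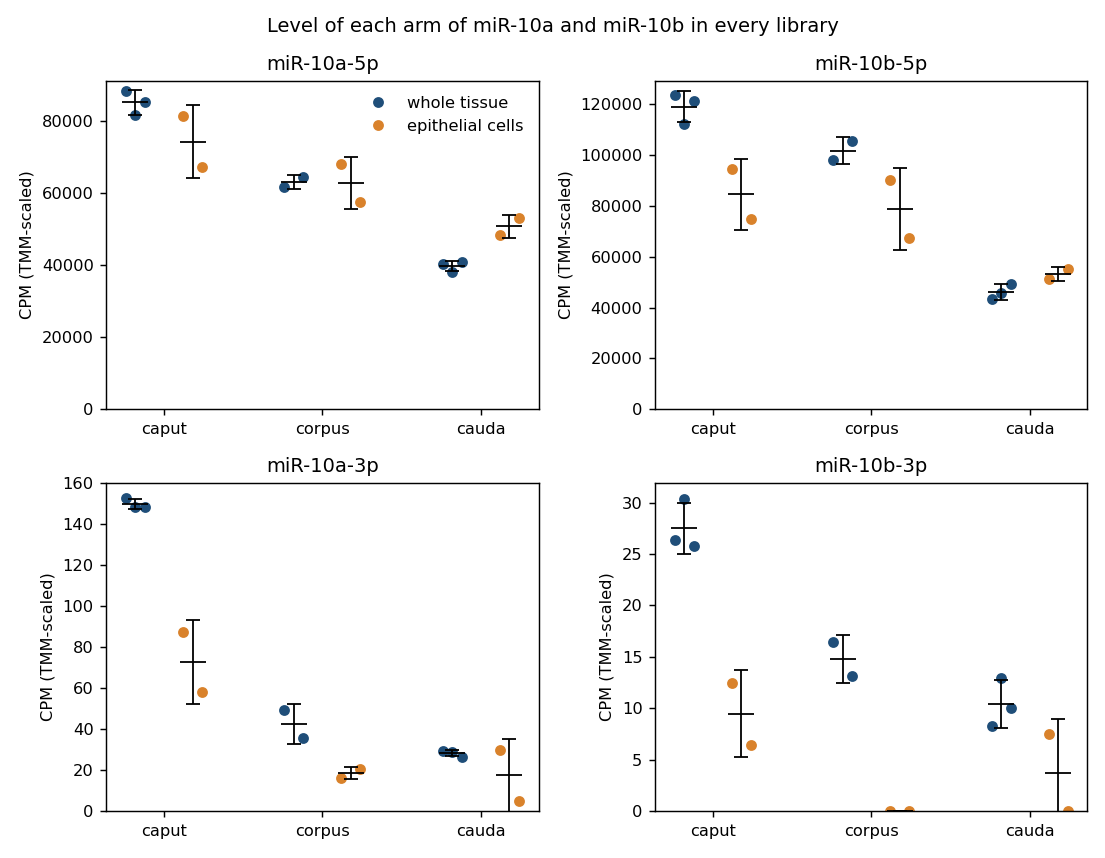
Points give the level of each arm in every library (TMM-scaled CPM, linear axes from 0) for whole tissue and epithelial cells of each region, and black marks the mean ± SD of a group (n = 3 in whole caput and cauda, n = 2 elsewhere). In whole tissue all 4 arms are lowest in the cauda, and the 3p arms reach at most 152 CPM in any library.

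All 4 arms were differentially expressed from caput to cauda in whole tissue, each lower in the cauda, where 53.2% of the 355 miRNAs tested were differentially expressed and 25.4% were lower in the cauda. From caput to corpus 1 of 4 was (miR-10a-3p, background 29.9%, 15.9% falling), and from corpus to cauda 1 of 4 was (miR-10b-5p, background 27.3%, 12.9% falling), a call lost with totals that left out the smooth muscle markers. Those totals called 93 miRNAs higher and 25 lower from corpus to cauda in place of 49 and 44, and the median over all miRNAs tested was then 0.37. The median change of the 4 arms from caput to cauda was −1.39, beside −0.05 over all miRNAs tested. Scaling by library totals moved that overall median to 0.30, and called 115 miRNAs higher and 65 lower in the cauda in place of 99 and 90. miR-10a-5p then changed by −0.75 (limma adjusted p = 4.9e-06), which is below 2-fold. With totals that also left out the 4 smooth muscle markers, the change was −0.39 for miR-10a-5p, −0.66 for miR-10b-5p and −0.70 for miR-10b-3p, each past an adjusted p of 0.05 by limma and below 2-fold, with an overall median of 0.67. The part of the muscle markers in the fall of the guides was not tested.

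**Figure D3:**
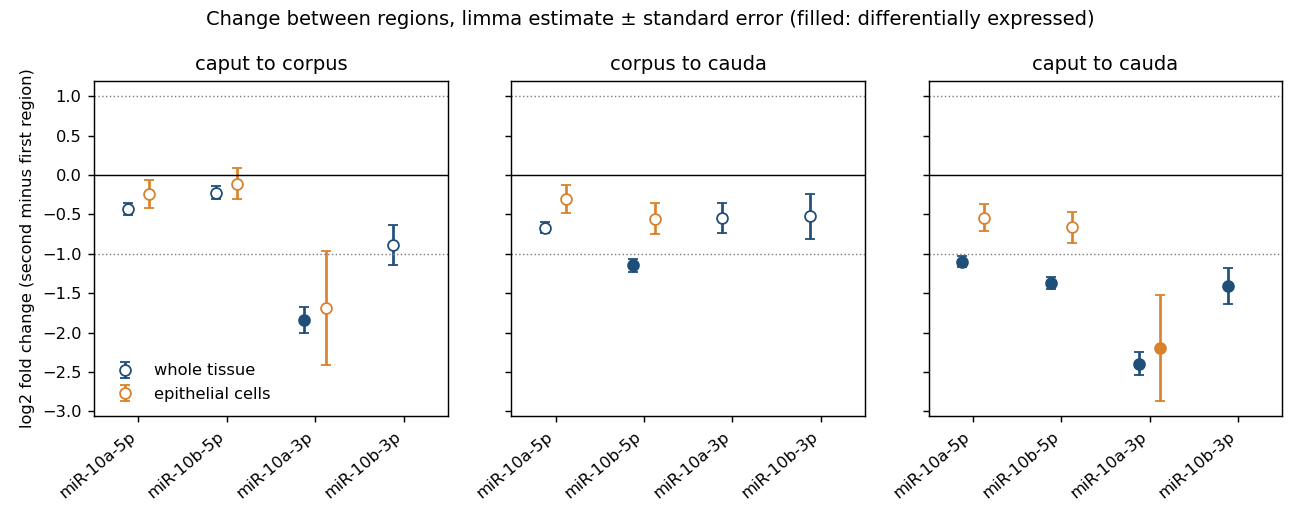
Points give the log2 fold change of each arm between 2 regions with its standard error, from limma, for whole tissue and epithelial cells, and filled points passed both an adjusted p below 0.05 and 2-fold (dotted lines). No arm lies above 0 in any comparison. Arms with too few counts to be tested have no point.

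Among the 3p arms, miR-10a-3p had the largest fold change of the 4 from caput to corpus and from caput to cauda. Whole caput libraries held 237, 215 and 270 counts of it (152, 148 and 148 CPM), corpus libraries 66 and 54 (49.3 and 35.4 CPM) and cauda libraries 57, 47 and 45 (29.3, 28.9 and 26.5 CPM). The caput lay well above both other regions, which were close to each other. The log2 change was −1.84 from caput to corpus (SE 0.17, 3.58-fold, limma adjusted p = 1.5e-05) and −2.39 from caput to cauda (SE 0.15, 5.25-fold, limma adjusted p = 3.1e-07). From corpus to cauda it was −0.55 (SE 0.19, limma adjusted p = 0.032), below 2-fold.

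miR-10b-3p, the scarcest arm, was lower in the cauda than in the caput. Its counts were 41, 44 and 47 in the whole caput, 22 and 20 in the corpus, with 16, 21 and 17 in the cauda. Corpus and cauda overlapped in counts, and on the CPM scale the corpus lay just above the cauda, at 13.1 and 16.4 against 8.23 to 12.9. The change from caput to cauda was −1.41 (SE 0.23, 2.66-fold, limma adjusted p = 0.00027). That from caput to corpus was −0.89 (SE 0.25, limma adjusted p = 0.012), below 2-fold unless corpus replicate 1 was left out (−1.05, limma adjusted p = 0.037), and that from corpus to cauda was −0.53 (SE 0.29, limma adjusted p = 0.14).

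In the epithelial cells the guides were also lowest in the cauda, by less. miR-10a-5p measured 81376 and 67073 CPM in the caput, 67908 and 57563 in the corpus, with 48378 and 53019 in the cauda. Caput and corpus overlapped and the cauda lay below both, as it did for 38.9% (against the caput) and 29.7% (against the corpus) of all miRNAs tested. The change from caput to cauda was −0.54 (SE 0.17, limma adjusted p = 0.038), below 2-fold, and those from caput to corpus (−0.24, limma adjusted p = 0.36) and from corpus to cauda (−0.30, limma adjusted p = 0.26) did not pass.

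miR-10b-5p in the epithelial cells was 94464 and 74670 CPM in the caput, 90141 and 67244 in the corpus, with 51234 and 55049 in the cauda. The first replicate was the higher one in the caput and the corpus, by more than the difference between those regions. From caput to cauda the change was −0.66 (SE 0.20, limma adjusted p = 0.032), from corpus to cauda −0.55 (SE 0.20, limma adjusted p = 0.096) and from caput to corpus −0.11 (SE 0.20, limma adjusted p = 0.73), a value whose sign depended on the scaling. By library totals neither guide passed from caput to cauda, at −0.35 for miR-10a-5p (limma adjusted p = 0.16) and −0.47 for miR-10b-5p (limma adjusted p = 0.081). Neither passed without any 1 of the 4 epithelial caput and cauda libraries, at −0.65 to −0.35 and −0.80 to −0.43, nor did miR-10a-5p without epithelial corpus replicate 1 (limma adjusted p = 0.051).

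miR-10a-3p was the only arm called in the epithelial cells, from caput to cauda, where 25.9% of the 216 miRNAs tested were differentially expressed and 12% were falling. It passed the filter on low counts (a mean above 10 in 1 of the regions) only through the caput, where it is high, with mean counts of 23 in caput, 2 in corpus and 4.5 in cauda libraries, so its fall is partly set by the filter. Caput libraries held 28 and 18 counts of it, corpus libraries 2 and 2, and cauda libraries 8 and 1. The caput was above both other regions (39% of miRNAs were without overlap and lower in the corpus). The fitted change was −2.20 (SE 0.67, limma adjusted p = 0.034), and the call was lost without either caput library or without cauda replicate 2 (log2 changes of −1.86, −2.43 and −1.21) and under DESeq2's test (−1.97, adjusted p = 0.13). No arm was called from caput to corpus (background 12.2%, 5.85% falling) or from corpus to cauda (background 10.9%, 4.17% falling), where miR-10a-3p was not tested. These backgrounds rest on few libraries: from caput to corpus the 25 calls became 16, 10 and 13 without caput replicate 1, caput replicate 2 and corpus replicate 1, from corpus to cauda the 21 became 8, 4 and 8 without caput replicate 2, corpus replicate 1 and corpus replicate 2, and from caput to cauda the 56 became 26 without caput replicate 2. Caput libraries held 4 and 2 counts of miR-10b-3p, corpus libraries 0 and 0, and cauda libraries 2 and 0, too few for a test. A count of 0 allows up to 3 counts, or 24.3 and 30.6 CPM in the corpus, with 14.3 CPM in cauda replicate 2, levels above those of whole corpus and cauda, so its absence is not shown.

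A ratio of counts within a library is free of library size and scaling. The ratio of miR-10a-5p to miR-10b-5p counts was 0.715, 0.727 and 0.704 in whole caput, 0.629 and 0.611 in corpus and 0.933, 0.833 and 0.825 in cauda. miR-10b-5p exceeded miR-10a-5p in all 14 libraries, and within whole tissue most in the corpus and least in the cauda. In the epithelial cells the order of the regions was the same, with ratios of 0.861 and 0.898 in caput, 0.753 and 0.856 in corpus and 0.944 and 0.963 in cauda. None of these regions overlapped within a preparation. From corpus to cauda the ratio was 1.39-fold higher in whole tissue and 1.19-fold higher in epithelial cells, for which an exact permutation test, two-sided, gave p = 0.2 and 0.333, the smallest it can give with so few libraries. From caput to cauda it was 1.21-fold higher in whole tissue (exact permutation p = 0.1, the smallest possible).

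In each region the ratio was higher in every epithelial library than in every whole tissue library, although in the cauda the gap was only from 0.933 to 0.944. Over all regions the mean was 0.747 ± 0.109 (SD, n = 8) in whole tissue and 0.879 ± 0.0753 (n = 6) in epithelial cells, with overlapping ranges (exact permutation test, two-sided, p = 0.029). Adjusted over the 23 ratio comparisons made here, p was 0.354, and without either whole corpus or either epithelial cauda library the unadjusted exact p was between 0.05 and 0.061. The preparations were deposited as separate count tables, so that cell type, table and sequencing cannot be told apart, and how reads matching both guides were divided is not given in the sources used here. In 5 of 14 libraries both guides had a count ending in 0.5, and no other library had one in either.

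**Figure D4:**
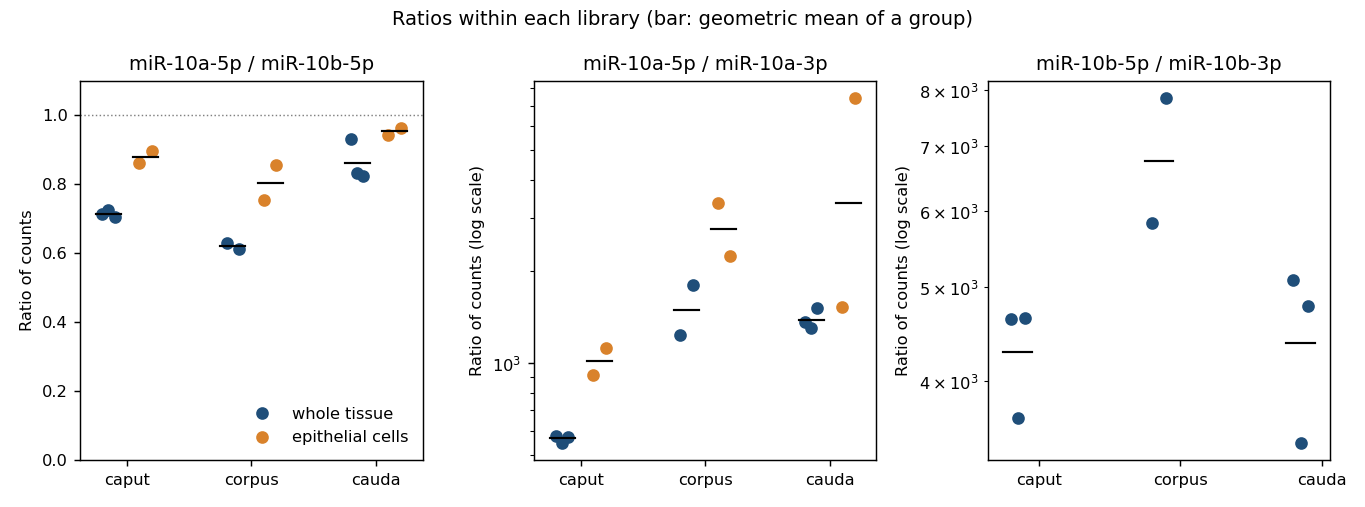
Points give the ratio of counts within each library for the guides (left, linear axis, dotted line at 1), for the arms of miR-10a (middle, log axis) and for the arms of miR-10b in whole tissue (right, log axis), and bars the geometric mean of a group. The guide ratio is lowest in the corpus and highest in the cauda in both preparations, and the miR-10a arm ratio of whole caput, 549 to 578, lies below every other library.

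The arms of miR-10a stood in another balance in the whole caput than further along the duct. With 0.5 added to each count, there were 578, 549 and 575 counts of miR-10a-5p per count of miR-10a-3p in the caput, 1240 and 1804 in the corpus, with 1363, 1302 and 1518 in the cauda. The caput stood apart from both other regions, which overlapped. The ratio was 2.45-fold higher in the cauda than in the caput (exact permutation test, two-sided, p = 0.1, the smallest possible) and 2.64-fold higher in the corpus (p = 0.2, exact, the smallest possible). Epithelial caput libraries gave 918 and 1125, corpus 3348 and 2255 and cauda 1529 and 7401, the last resting on a single count of miR-10a-3p. Over all regions the ratio was 2.08-fold higher in epithelial cells than in whole tissue, with overlapping ranges (exact permutation test, two-sided, p = 0.052; adjusted over the ratio comparisons, 0.354). The unadjusted exact permutation p was below 0.05 without whole corpus replicate 2 (0.038), whole cauda replicate 3 (0.047), epithelial caput replicate 1 (0.025) or epithelial caput replicate 2 (0.04).

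For miR-10b the arms in whole tissue gave a highest ratio in the corpus. It was 4631, 3658 and 4650 in the caput, 5825 and 7848 in the corpus, with 5090, 3450 and 4786 in the cauda. Only the corpus lay apart, 1.58-fold above the caput (exact permutation p = 0.2, the smallest possible), and caput and cauda overlapped, at a 1.02-fold difference (exact permutation p = 0.8). The ratio was not compared in the epithelial cells, where 3 of 6 libraries had no count of miR-10b-3p.

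Whether the regional change differs between whole tissue and epithelial cells was tested in 1 limma fit. It covered the 194 miRNAs listed under the same name for both, with a mean count above 10 in at least 1 region of each. Some miRNAs are named differently in the 2 lists (miR-126-5p and miR-126a-5p, for example) and were left out of it. From caput to cauda the guides fell less in the epithelial cells, by 0.60 on the log2 scale for miR-10a-5p (SE 0.13, limma adjusted p = 0.003) and 0.76 for miR-10b-5p (SE 0.16, limma adjusted p = 0.0027). The same direction passed for 25.3% of all 194 miRNAs (32% in either direction), and the median over all of them was 0.38, so both values are to be read against that shift. The 62 calls in either direction became 39 without any 1 of the 4 corpus libraries, 34 without epithelial caput replicate 1, and 30 and 37 without epithelial cauda replicates 1 and 2, and the median became 0.19 to 0.20 without a corpus library and 0.18 without epithelial cauda replicate 2. With DESeq2's size factors, which moved the overall median to 0.08, the difference was 0.31 for miR-10a-5p (limma adjusted p = 0.08). Without epithelial cauda replicate 2 neither passed, at 0.30 (limma adjusted p = 0.23) and 0.47 (limma adjusted p = 0.13). miR-10a-5p also lost its call without any 1 of the 4 corpus libraries of either preparation (0.42 each time) and by library totals (0.40), and miR-10b-5p without either whole corpus library (0.58). For miR-10a-3p the difference was 0.19 (SE 0.55, limma adjusted p = 0.82), an error too wide to show a difference of this size. No arm passed from caput to corpus (6.7% of miRNAs did) or from corpus to cauda (8.76%). By library totals the calls from caput to corpus were 5 (2 above 0, 3 below), in place of 13 (12 above 0, 1 below). Those from corpus to cauda stayed at 17. The 13 calls from caput to corpus became 0 to 2 without any 1 corpus library, 4 without epithelial caput replicate 1 and 8 without whole caput replicate 2. The 17 from corpus to cauda became 7 without whole corpus replicate 1 or epithelial corpus replicate 2, 9 without epithelial corpus replicate 1 or whole cauda replicate 2, and 8 without epithelial cauda replicate 2. In that step miR-10b-5p came nearest at 0.54 (limma adjusted p = 0.052). It passed without whole caput replicate 2 (0.54, limma adjusted p = 0.047), without whole cauda replicate 3 (0.60, limma adjusted p = 0.034) and with a replicate block (0.59, limma adjusted p = 0.041).

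Between the preparations of 1 region, both guides had their largest TMM-scaled difference in the caput. There epithelial cells had lower levels than whole tissue of miR-10b-5p (log2 difference −0.71, SE 0.11, limma adjusted p = 7.3e-05) and miR-10a-5p (−0.41, SE 0.088, limma adjusted p = 0.00099), both below 2-fold, with an overall median of −0.28. By library totals these were −0.41 for miR-10b-5p (limma adjusted p = 0.013) and −0.11 for miR-10a-5p (limma adjusted p = 0.44), whose larger difference was then in the cauda (0.29, limma adjusted p = 0.049). The median over all miRNAs tested was then 0.02 in the caput and 0.17 in the cauda. miR-10a-3p was lower in epithelial caput by 2.37-fold (log2 −1.24, SE 0.30, limma adjusted p = 0.0023), where 37.1% of miRNAs were called and 21.6% were lower. With library totals it stood at −0.94, below 2-fold. The calls over all miRNAs were then 41 higher and 27 lower in the epithelial caput, in place of 30 and 42. In the corpus miR-10b-5p was lower in the epithelial cells (−0.49, SE 0.12, limma adjusted p = 0.005), below 2-fold, and miR-10a-5p stood at −0.12 (limma adjusted p = 0.31). In the cauda the values were 0.19 for miR-10a-5p (limma adjusted p = 0.077) and 0.05 for miR-10b-5p (limma adjusted p = 0.73), whose sign depended on the scaling. No arm was called in the corpus (30.4% of miRNAs were) or in the cauda (39.7%), although miR-10a-3p stood at −0.99 and −1.05 there (limma adjusted p = 0.095 and 0.061). It would be called in the corpus without whole corpus replicate 2 (−1.34) or either epithelial cauda library (−1.15), and in the cauda without any 1 corpus library (−1.23 to −1.21) or without epithelial cauda replicate 1 (−2.25).

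Among the other miRNAs of the Hox clusters, the miR-196 5p arms were higher in the cauda than in the caput. The list held 7 names from the miR-196 and miR-615 hairpins, and the miR-196 hairpins lie nearer the end of the clusters that is active in the rear of the embryo. Of the 5 tested between caput and cauda of whole tissue, miR-196a-2-3p and miR-196b-3p passed the filter on low counts only through the regions where they are high, with mean counts of 0.333 and 0.667 in the caput and 23 and 16.3 in the cauda, so no count or median over the list is given. The other three averaged more than 10 counts in caput, corpus and cauda alike. miR-196b-5p had 22.7 ± 1.79 CPM (SD, n = 3) in the caput, 249 ± 44.3 (n = 2) in the corpus, with 930 ± 129 (n = 3) in the cauda, a log2 change of 5.33 from caput to cauda (SE 0.20, limma adjusted p = 2.7e-08). miR-196a-5p rose by 4.66 (SE 0.21, limma adjusted p = 6e-08), nearly all of it by the corpus (4.30). miR-615-3p stood at 0.73 (limma adjusted p = 0.018), below 2-fold, and was called by library totals (1.08, limma adjusted p = 0.0025) and by totals without the muscle markers (1.45, limma adjusted p = 0.00034). In the epithelial cells miR-196b-5p rose by 5.61 (SE 0.55, limma adjusted p = 0.00055) and miR-196a-5p by 4.11 (SE 0.35, limma adjusted p = 0.00029) from caput to cauda, and no other name of the list was tested. There miR-196a-5p was highest in the corpus, at 34.8, 1025 and 626 CPM in caput (mean count 11), corpus and cauda. Its step from corpus to cauda was −0.70 (limma adjusted p = 0.078). That step differed between the preparations, by −1.10 (limma adjusted p = 0.014). Rising miRNAs made up 27.9% of those tested in whole tissue and 13.9% in epithelial cells, a share that rests on few libraries and was far smaller without epithelial caput replicate 2.

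**Figure D5:**
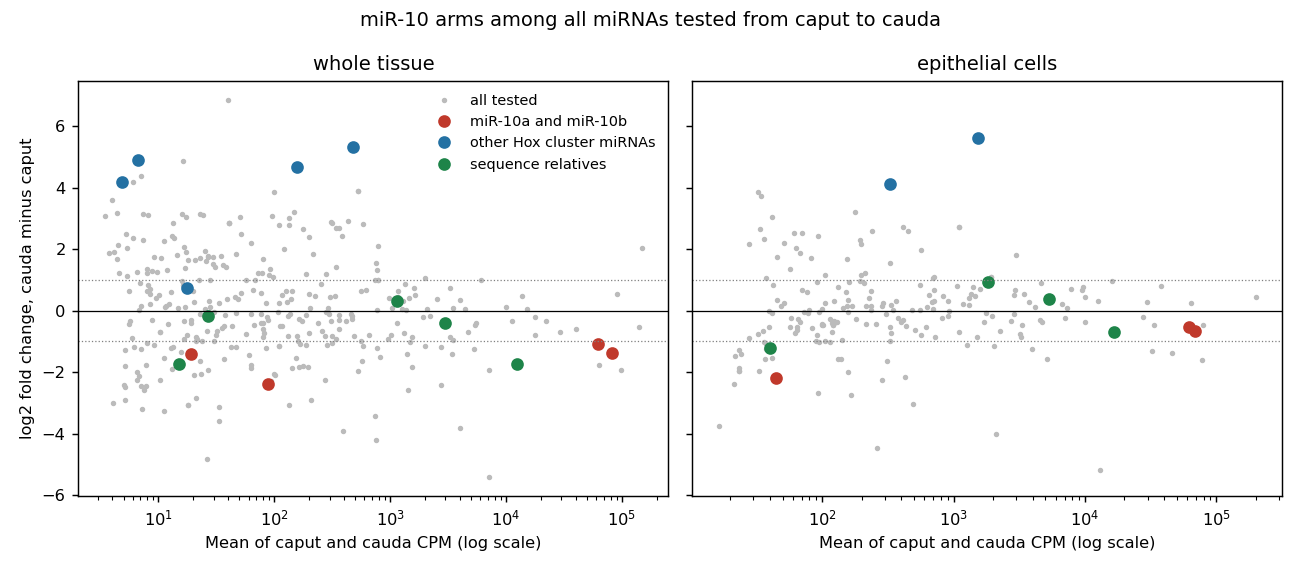
Each point is a miRNA tested from caput to cauda, at the mean of its caput and cauda CPM (log x axis) and its log2 fold change (y axis, cauda minus caput, dotted lines at 2-fold), for whole tissue and epithelial cells. The miR-10 guides lie at the abundant end below 0, miR-10a-3p near the lower edge, and the miR-196 arms near the top, at 4.11 to 5.61.

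The miR-99 and miR-100 miRNAs are relatives in sequence, which share a stretch of the guide but not its seed, and are shown with the longest run in common with miR-10a-5p in capitals.
miR-99a-5p: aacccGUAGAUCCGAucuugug
miR-99b-5p: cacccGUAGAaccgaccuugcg
miR-100-5p: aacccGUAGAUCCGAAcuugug
The run is 10 bases in miR-99a-5p, 5 in miR-99b-5p and 11 in miR-100-5p, while miR-99b-5p shares 10 bases in a row with miR-10b-5p. Of the 5 relatives tested between whole caput and cauda, 0 rose and 2 fell, beside 27.9% rising and 25.4% falling over all miRNAs tested. miR-99b-5p fell by 1.74 on the log2 scale (SE 0.12, limma adjusted p = 5.6e-07), from 18992 ± 3042 CPM (SD, n = 3) to 5655 ± 593 (n = 3), and its 3p arm by 1.72 (SE 0.33, limma adjusted p = 0.00077). miR-100-5p changed by −0.39 (SE 0.11, limma adjusted p = 0.0092), below 2-fold and of the opposite sign when totals without the muscle markers set the scale, and miR-99a-5p by 0.32 (SE 0.14, limma adjusted p = 0.054). With totals without the muscle markers, miR-99a-5p stood at 1.03 (limma adjusted p = 0.00012), past 2-fold. In the epithelial cells 0 of 4 were called by limma in either direction, beside 25.9% of all miRNAs tested, with adjusted p below 0.05 and under 2-fold for miR-99a-5p (0.93) and miR-99b-5p (−0.69). miR-99a-5p was called there by library totals (1.12, limma adjusted p = 0.0041), by totals without the muscle markers (1.30, limma adjusted p = 0.0017), without caput replicate 1 (1.02, limma adjusted p = 0.046) and without cauda replicate 2 (1.09, limma adjusted p = 0.0046), and miR-99b-3p, which passed the filter only through the caput, without corpus replicate 2 (−1.18, limma adjusted p = 0.048).

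The miRNAs whose levels ran most like each arm were ranked by Pearson's r of log2 CPM (0.5 added) over the 8 whole tissue libraries, among 267 candidates outside the family. For miR-10a-5p these were miR-135a-5p (r = 0.999), miR-191-5p (0.991) and miR-99b-5p (0.987), and for miR-10b-5p miR-204-5p (0.992), miR-96-5p (0.989) and miR-187-3p (0.987). For miR-10a-3p they were miR-429-3p, an epithelial marker of the miR-200 family (0.989), miR-148a-5p (0.988) and let-7c-5p (0.987), and for miR-10b-3p miR-497a-5p (0.969), miR-138-5p (0.964) and miR-149-5p (0.964). The guides correlated with each other at 0.973, miR-10a-5p with its own 3p arm at 0.919 and miR-10b-5p with its own at 0.848. All values share the same libraries and 3 regions, so they describe a like order of regions and nothing more. Over the 6 epithelial libraries and 140 candidates, the leaders were miR-872-5p (0.973), miR-148a-3p (0.948) and miR-744-5p (0.948) for miR-10a-5p and let-7a-5p (0.988), miR-148a-3p (0.950) and miR-872-5p (0.909) for miR-10b-5p.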

How the data were processed

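The authors deposited 2 tables of expected counts, unnormalized, 1 value per mature miRNA and library, with 0.001 added to every value for epithelial cells, which was removed. Per the study's methods and processing notes, reads (Illumina TruSeq, CASAVA 1.8.2) were screened for adaptors and ribosomal sequence and aligned (Bowtie 1.1.1) to mm10 and miRBase; limma is also listed. Here counts were rounded, scaled by TMM (edgeR 4.0.16) and tested with limma-voom (limma 3.58.1, R 4.3.3), 1 fit per preparation and 1 over all 14 libraries, on miRNAs with a mean count above 10 in at least 1 of the regions, adjusted by Benjamini-Hochberg. The fit over all 14 needed this in both preparations under the same name. Differentially expressed means adjusted p below 0.05 and at least 2-fold; the difference between preparations needs the adjusted p only. Ratios used exact permutation tests (scipy 1.17.1). Named miRNAs are the members, the 2 fixed lists and the 3 nearest in r. Members and lists were chosen with earlier results of these data known. The fits were run on simulated counts with known changes and 1 common spread for all miRNAs. That setting is simpler than these data, so it checks the code only. Alternatives are given in the closing section. All replicate pairs differed by more than sampling noise. 0 columns were left out.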

Additional observations from a re-analysis of the deposited data

Results flagged for a closer look

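The change of miR-10a-5p from caput to cauda differed between preparations, by 0.60 on the log2 scale (epithelial cells minus whole tissue, limma adjusted p = 0.003). That of miR-10b-5p differed by 0.76 (limma adjusted p = 0.0027). Both were picked out by the test of the difference itself, beside a median of 0.38 over the 194 miRNAs tested. The summed smooth muscle markers were at 53230 to 65980 CPM in whole caput and 223200 to 249100 in whole cauda, and at 144500 to 195700 and 158200 to 336800 in the epithelial caput and cauda, and their part in the difference was not tested.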

How the results depend on the processing

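The 61 results on the 4 arms were recomputed 881 times, of which 800 kept their direction and side of the threshold. Where a value below crossed the threshold or turned, the cause was not tested. In whole tissue, library totals gave 0.11 for miR-10b-5p from caput to corpus and −0.75 for miR-10a-5p from caput to cauda, and 0.19 for miR-99a-3p. Totals without smooth muscle markers (tried only after seeing the data) gave 0.16 for miR-10b-5p from caput to corpus, −0.82 for it from corpus to cauda, and, from caput to cauda, −0.39 for miR-10a-5p, −0.66 for miR-10b-5p, −0.70 for miR-10b-3p, 0.55 for miR-99a-3p and 0.32 for miR-100-5p. With the 5p counts summed, the change from corpus to cauda was −0.94. In epithelial cells, miR-10b-5p from caput to corpus was 0.00070 by DESeq2's test, 0.059 by totals and 0.17 without the muscle markers, where miR-10a-5p was 0.033, and miR-10a-3p from caput to cauda was −1.97 by DESeq2's test. Library totals moved the split of higher against lower calls over all miRNAs from 47 and 53 to 76 and 35 for whole caput to corpus, from 13 and 12 to 18 and 9 for epithelial caput to corpus and from 30 and 26 to 39 and 19 for epithelial caput to cauda.

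For the difference between preparations, totals gave −0.010 (miR-10a-3p) and −0.049 (miR-10b-5p) from caput to corpus, 0.018 (miR-10a-3p) from corpus to cauda and 0.40 (miR-10a-5p) from caput to cauda, and −0.94 for miR-10a-3p in the caput. DESeq2's size factors gave 0.31 (miR-10a-5p) and −0.11 (miR-10a-3p) from caput to cauda, and −1.25 (miR-10a-3p) and −0.14 (miR-10b-5p) in the cauda. For caput to cauda the split of differences above and below 0 was 49 and 13 with TMM, 28 and 16 with totals and 23 and 18 with those factors. The edgeR test put miR-10a-3p at −0.070 from caput to corpus and at 0.57 for the step to the cauda.

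Leaving out 1 library gave these ranges where a result changed, and a library then alone in its group was taken to vary like the other groups. The change from caput to corpus was −1.05 to −0.66 for miR-10b-3p in whole tissue and −0.32 to 0.13 for miR-10b-5p in epithelial cells, and that from caput to cauda −3.29 to −1.21 for miR-10a-3p in epithelial cells. The difference between preparations was −0.15 to 0.28 (miR-10b-5p) and −0.13 to 0.42 (miR-10a-3p) from caput to corpus, 0.36 to 0.73 (miR-10b-5p) and −1.10 to 0.93 (miR-10a-3p) from corpus to cauda, and 0.30 to 0.65 (miR-10a-5p), 0.47 to 0.82 (miR-10b-5p) and −1.04 to 1.00 (miR-10a-3p) from caput to cauda. Epithelial cells against whole tissue gave −1.34 to −0.95 (miR-10a-3p) in the corpus, and −2.25 to −0.22 (miR-10a-3p), −0.21 to 0.11 (miR-10b-5p) and −0.080 to 0.23 (miR-10a-5p) in the cauda. Over all regions the log2 guide ratio differed by 0.20 to 0.29 and the miR-10a arm ratio by 0.70 to 1.30. From corpus to cauda the miR-10a arm ratio changed by −0.37 to 0.17 in whole tissue and −0.85 to 1.43 in epithelial cells, and from caput to cauda the miR-10b arm ratio by −0.083 to 0.20.

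Deviations of same-numbered libraries correlated at 0.32 between epithelial caput and corpus, at −0.32 and −0.25 for the other epithelial pairs and at −0.21 to 0.12 in whole tissue, so the numbers were not taken to pair the samples. With a replicate block the preparation difference from corpus to cauda was 0.00065 for miR-10a-3p and 0.59 for miR-10b-5p (limma adjusted p = 0.041), and no other call on the arms changed. The block called 27, 22 and 52 miRNAs in epithelial cells from caput to corpus, corpus to cauda and caput to cauda, in place of 25, 21 and 56, and with the cauda numbers exchanged, chosen after seeing the data, 40, 32 and 64.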
